A study of Rattus norvegicus with 3 samples.

Results

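Immediate early genes are switched on within minutes of a stimulus without new protein synthesis, and the 10 described here are the AP-1 genes FOS, FOSB, JUN, JUNB, JUND and ATF3 together with EGR1, EGR2, NR4A1 and IER2. They were found by their symbol in the deposited table, where 9 of the 10 have an entry among 12771, and IER2 has none. They were selected on their No-SCI and SCI values, which were known, so the ratios of these 9 genes are a description and carry no test. The RNA came from the spinal cord of female Sprague Dawley rats, 3 months old. All animals had a laminectomy at T9, which was the whole procedure in the control group (No-SCI) and was followed by a contusion of the exposed cord in the injured group (SCI). Tissue just rostral to the injury was taken 24 h later and digested in the cold with a bacterial protease. The cells were pelleted, and the RNA left in the supernatant, called the acellular fraction, was sequenced. By its labels the series has 2 libraries from No-SCI animals and 1 from an SCI animal, while the methods describe 2 animals per condition.

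The deposited table holds 1 level per group for each entry. Its unit is FPKM, in which the fragments counted for a gene are scaled by transcript length and by library size, and its values are group estimates from Cuffdiff. They come with no spread between animals and no read count per gene, so a difference between No-SCI and SCI could not be set against replicate error and no p-value is given. A gene is counted as higher or lower after SCI where its group values differ by at least 2-fold, which is a log2 ratio (SCI over No-SCI) of at least 1 in size. By that measure 7.96% of all entries were higher (1016 entries) and 12.1% were lower (1539 entries). The median log2 ratio of all entries was −0.12, so a gene with no change relative to the table as a whole sits slightly below 0. Centring that median at 0 gives 1219 higher and 1225 lower entries. In RNA from a mixed tissue, fewer cells of a type and less RNA per cell cannot be told apart.

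AP-1 is a family of transcription factors that bind DNA as pairs through a basic region and a leucine zipper (bZIP). FOS proteins pair with JUN proteins, JUN proteins also pair with each other, and ATF3 pairs with JUN proteins or with itself. EGR1 and EGR2 are zinc finger factors and NR4A1 is an orphan nuclear receptor, each induced through the same calcium and MAP kinase signals. JUN and ATF3 are known as part of the response of injured neurons, above all in sensory neurons with a cut peripheral axon, and EGR1 and FOS are widely used as marks of recent cell activity.

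Among the 9 listed genes, 4 were at least 2-fold higher after SCI (JUND, EGR1, JUNB and FOS), 1 was at least 2-fold lower (ATF3), and FOSB, JUN, EGR2 and NR4A1 stayed under 2-fold. Their median log2 ratio was 0.69. Because these values chose the genes, nothing is read from the count against the shares of all entries given above. At a 1.5-fold minimum 5 were higher and 2 lower (16.9% and 26.3% of all entries), and at a 3-fold minimum 0 were higher and 1 was lower (3.17% and 3.27% of all entries). On the log2 scale the gene just inside the threshold is FOS (1.14) and the one just outside is NR4A1 (−0.88).

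**Figure D1:**
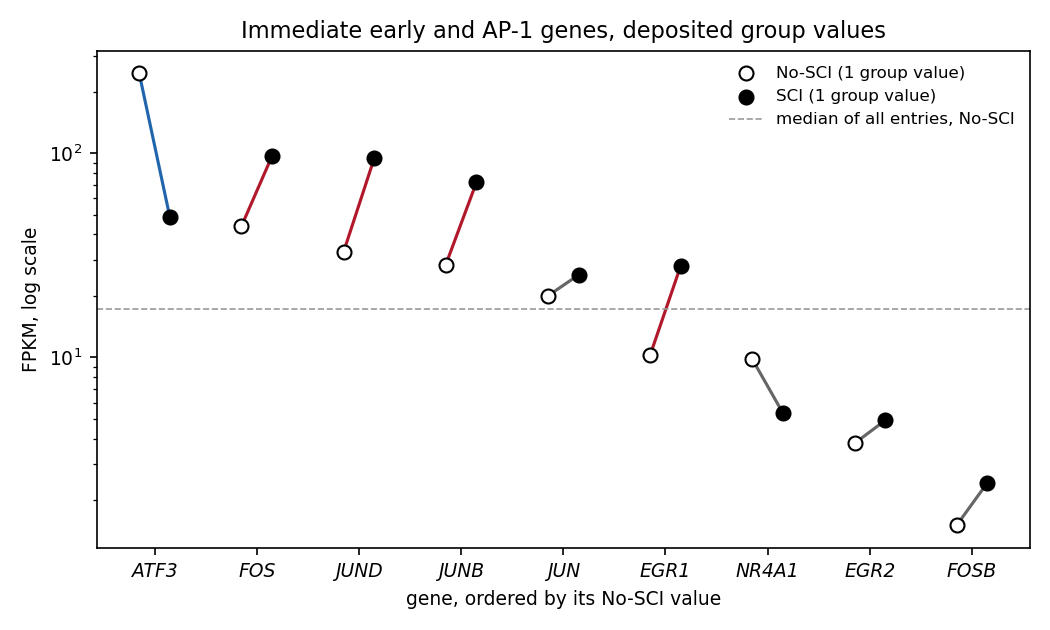
Each gene is shown with its No-SCI (open) and SCI (filled) group value in FPKM on a log axis, joined by a line that is red where the SCI value is at least 2-fold higher, blue where it is at least 2-fold lower and grey otherwise. ATF3 starts at 246 FPKM and ends at 48.6 FPKM, under FOS, JUND and JUNB, and the dashed line marks the No-SCI median of all entries, 17.2 FPKM.

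ATF3, a stress-induced bZIP factor that acts as a repressor or an activator depending on its partner, had the highest level of the 9 genes in No-SCI. Its value was 246 FPKM in No-SCI and 48.6 FPKM in SCI, which is 5.06-fold lower after SCI, a log2 ratio of −2.34. In No-SCI it stood at percentile 93.4 of all entries, and in SCI at percentile 74.4. Of 12771 entries 74 had a lower log2 ratio than ATF3, and of the 838 entries with at least its No-SCI level 4 did. ATF3 thus lay far toward the lower end of the table in this contrast while JUND and FOS lay toward the upper end. In No-SCI its FPKM was 5.61 times that of FOS, and in SCI FOS was at 1.99 times the FPKM of ATF3. The share of ATF3 in the summed FPKM of the 9 genes was 62.1% in No-SCI and 12.9% in SCI.

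FOS, the partner of JUN in the classical AP-1 dimer, was at 43.8 FPKM in No-SCI and 96.8 FPKM in SCI, 2.21-fold higher (log2 ratio 1.14). It took first place among the 9 genes in SCI after second place in No-SCI. FOSB, its close relative, was at 1.51 FPKM in No-SCI and 2.43 FPKM in SCI, a log2 ratio of 0.69. No value in the table is under 1, and both values of FOSB lie near that limit. If a constant of 1 had been added to every value, subtracting it would give FOSB a log2 ratio of 1.499 and put it past 2-fold, a larger shift than for any other of the 9 genes. FOS was far more abundant than FOSB in both groups, by 29.1 times in No-SCI and 39.9 times in SCI.

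The JUN genes did not move by the same amount. JUND, the member that many resting cells express steadily and that is less dependent on induction than the other JUN genes, was at 32.8 FPKM in No-SCI and 94.4 FPKM in SCI. Its 2.88-fold higher SCI value (log2 ratio 1.52) gave it the largest positive ratio of the 9 genes. JUNB, which can hold back JUN activity in some promoters, was at 28.4 FPKM in No-SCI and 71.9 FPKM in SCI, 2.53-fold higher (log2 ratio 1.34). JUN itself, the JUN protein most tied to the axon injury response, was at 20.0 FPKM in No-SCI and 25.3 FPKM in SCI, a log2 ratio of 0.34, or 0.46 above the median of all entries. The summed FPKM of the 3 JUN genes was 81.3 in No-SCI and 192 in SCI. Within that sum JUN made up 24.6% in No-SCI and 13.2% in SCI, while JUND went from 40.4% to 49.3% and JUNB from 34.97% to 37.5%. FOS and FOSB together were at 45.3 FPKM in No-SCI and 99.3 FPKM in SCI, so the FOS genes stood at 0.558 of the JUN sum in No-SCI and 0.518 in SCI.

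EGR1, a zinc finger activator that binds GC-rich sites, was at 10.3 FPKM in No-SCI and 28.1 FPKM in SCI, 2.74-fold higher (log2 ratio 1.46). EGR2, known for its role in Schwann cell myelination and hindbrain patterning, was at 3.79 FPKM in No-SCI and 4.91 FPKM in SCI, a log2 ratio of 0.37. EGR1 was below the median of all entries in No-SCI, at percentile 37.4, and above it in SCI, at percentile 63.7. The FPKM of EGR1 was 2.71 times that of EGR2 in No-SCI and 5.73 times in SCI. NR4A1, the nuclear receptor also called Nur77, went the other way, with 9.79 FPKM in No-SCI and 5.33 FPKM in SCI, a log2 ratio of −0.88. Its relative NR4A2 was at 4.98 FPKM in No-SCI and 9.50 FPKM in SCI (log2 ratio 0.93), so the order of these receptors by FPKM was opposite in the groups. Neither reached 2-fold as deposited, but NR4A2 did after median centring (1.05) and NR4A1 did with 1 subtracted from every value (−1.02). NR4A3, EGR3 and EGR4 have no entry.

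The order of the levels in No-SCI was ATF3, FOS, JUND, JUNB, JUN, EGR1, NR4A1, EGR2 and FOSB. In SCI it was FOS, JUND, JUNB, ATF3, EGR1, JUN, NR4A1, EGR2 and FOSB. Since no value has a spread, which neighbours differ beyond error is unknown, and several lie close together, such as EGR1 and NR4A1 in No-SCI or FOS and JUND in SCI. The summed FPKM of the 9 genes was 396 in No-SCI and 378 in SCI, a log2 ratio of −0.069. Without ATF3 the sum of the other 8 was 150 FPKM in No-SCI and 329 FPKM in SCI, a log2 ratio of 1.13, so the nearly level total is made of a lower ATF3 and a higher remainder.

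**Figure D2:**
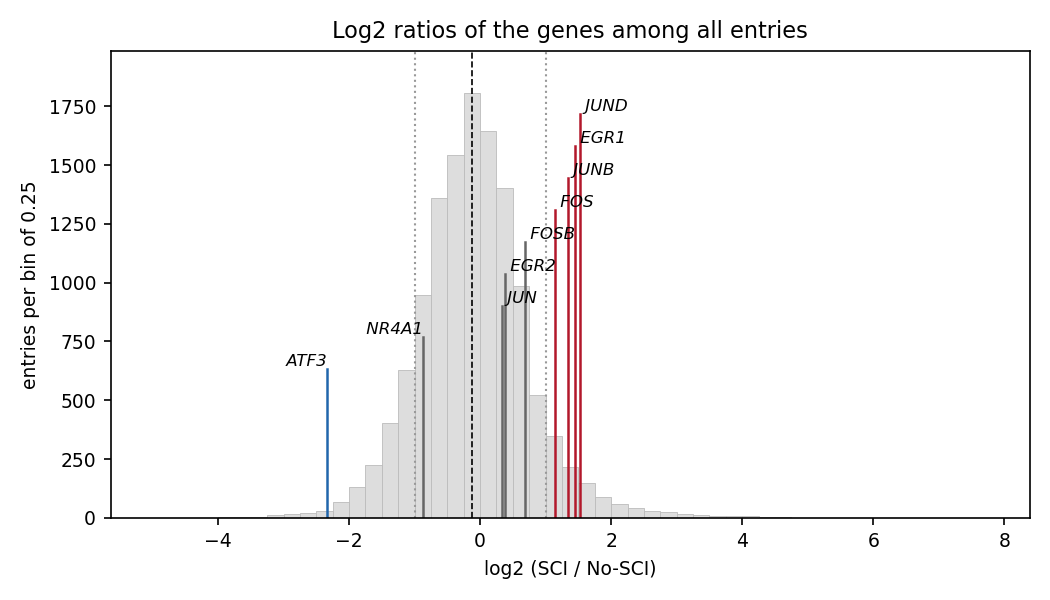
Grey bars count all 12771 entries in bins of 0.25 of the log2 ratio, and coloured lines place the 9 genes (red at least 2-fold higher, blue at least 2-fold lower, dark grey between), with line heights chosen only to separate the names. The dashed line is the median of all entries (−0.12) and the dotted lines mark 2-fold, with ATF3 at −2.34 and JUND at 1.52.

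The promoters of these genes are known for elements that answer calcium, cyclic AMP and growth factor signals, so they are shown here to let the genes be compared by sequence. RefSeq windows on the GRCr8 assembly, from 250 bases before to 50 bases after a transcript start, were at hand for 7 of the 10 genes (FOSB, JUNB, JUND, EGR1, EGR2, NR4A1 and IER2). Motifs were searched on both strands. The cAMP response element (TGACGTCA), bound by CREB and ATF proteins, is in 1.83% of all 33469 windows of this length, and its core (TGACG), which the full element also contains, is in 21.2%. The CArG box, bound by serum response factor (SRF), has 6 A or T bases between CC and GG and is in 1.64% of windows. The AP-1 site (TGANTCA) is in 7.33%, the EGR site (GCGNGGGCG) in 4.98% and the NR4A site (AAAGGTCA) in 1.43%.

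JUND and IER2 each had 1 full cAMP response element, shown in capitals in the first pair of sequences below, and JUND had 3 EGR sites, 1 of which is in capitals in the third.
JUND, chr16:18769974-18770003, minus strand: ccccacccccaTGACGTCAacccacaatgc
IER2, chr19:40399296-40399325, plus strand: tggcgtttcagTGACGTCActcttactcta
JUND, chr16:18769828-18769857, minus strand: ccaatggcgaGCGTGGGCGgtgagctcatc
The element of JUND begins 221 bases and that of IER2 66 bases before the start, and the EGR site shown begins 76 bases before it. JUNB, which like JUND was higher after SCI, held 1 core of the cAMP response element, in capitals here, and neither a full one nor an EGR site.
JUNB, chr19:40080959-40080988, plus strand: gcttcctgacagTGACGcgagccgcctcct

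EGR1 and EGR2, which differed in their ratios, share an arrangement in these windows. Each has a CArG box with the same bases, CCATATATGG, that begins 83 bases before the start, and a core of the cAMP response element on the other strand that begins 66 bases before it. EGR1 has a second CArG box (CCATATTAGG, 105 bases before the start) and a second core, which EGR2 lacks. The CArG box of EGR2 is in capitals here.
EGR2, chr20:21054505-21054534, minus strand: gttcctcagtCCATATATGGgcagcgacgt
Like JUND and JUNB, which were higher after SCI, and like IER2, NR4A1 has no CArG box in its window. NR4A1 was lower after SCI but under 2-fold. It has 4 copies of TGCGTCA, an AP-1-like site that contains the core on the other strand and is in 1.90% of all windows, and the copy nearest the start is in capitals here.
NR4A1, chr7:134260072-134260101, plus strand: gcccctctccaTGCGTCAcggagcgcttaa
NR4A1 also has 1 EGR site. The window of FOSB held none of the motifs, and no window of the 7 genes held the AP-1 site or the NR4A site. A match describes letters only, and a motif that is missing from these windows may lie outside them.

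A further list holds genes known as immediate early genes or grouped with them, and whether they act as a shared program here was not tested. This list of 50 genes, like the lists that follow, was drawn up with earlier results of these data known, among them the values of the genes above. The list counts are therefore a description, and the shares of all entries beside them are no test. Of its 41 genes with an entry, 13 were at least 2-fold higher after SCI and 3 at least 2-fold lower, beside 7.96% and 12.1% of all entries. The list's median log2 ratio was 0.50. IER3, a survival factor of the immediate early response, was at 15.05 FPKM in No-SCI and 108 FPKM in SCI, the largest ratio of the list at 2.84 on the log2 scale. CYP1B1, a cytochrome P450 enzyme, was at 13.3 and 90.2 FPKM (2.76). MAFF, a small MAF protein that pairs with other bZIP factors, was at 40.4 and 133 FPKM (1.72). KLF4 and KLF10, zinc finger factors of the Krüppel-like family, had log2 ratios of 1.59 and 1.08. IER5 and IER5L, relatives of IER2, which has no entry, were at 1.37 and 1.39. The growth inhibitor BTG1 (1.36), the pseudokinase TRIB1 (1.25), the RNA decay factor ZFP36L1 (1.22), the NF-kappaB inhibitor NFKBIA (1.14) and the kinase SIK1 (1.09) were also at least 2-fold higher. KLF10 (0.98) and SIK1 (0.97) fell under 2-fold with a pseudocount of 1, which left 11 higher, and median centring brought the count to 15.

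The genes of the list that were lower include a close relative of FOS. FOSL1, also called Fra-1, was at 44.9 FPKM in No-SCI, a little above FOS, and at 18.5 FPKM in SCI, a log2 ratio of −1.28. CSRNP1, a nuclear protein induced by AXIN, was at 33.0 FPKM in No-SCI and 10.4 FPKM in SCI (−1.66), and ARC, the synaptic immediate early gene, was at 5.26 and 2.29 FPKM (−1.20, or −0.93 and under 2-fold with a pseudocount of 1). In No-SCI the list's most abundant genes were the growth arrest genes GADD45A, with 316 FPKM in No-SCI and 187 FPKM in SCI, and GADD45G, with 172 and 148 FPKM, followed by KLF6, with 85.8 and 94.4 FPKM. None of these 3 reached 2-fold. FOSL2, MYC, NPAS4, SGK1, MCL1 and PER1 have no entry. Among the FOS, JUN and ATF3 genes with an entry, FOSL1 and ATF3 were thus at least 2-fold lower in SCI, whereas FOS, JUNB and JUND were at least 2-fold higher.

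Of 32 other bZIP factors, which include the partners and competitors of AP-1, 29 had an entry, 8 were at least 2-fold higher (27.6%, beside 7.96% of all entries) and 4 at least 2-fold lower (13.8%, beside 12.1%). Their median log2 ratio was 0.0027, or about 0.12 above that of all entries. This median turned to −0.034 when genes with a mean under 5 FPKM were left out. CEBPD, an acute phase factor of the C/EBP family, was at 18.6 FPKM in No-SCI and 163 FPKM in SCI, a log2 ratio of 3.13, the largest of these 29. Its relative CEBPB was at 10.3 and 33.0 FPKM (1.68), and XBP1, a factor of the unfolded protein response, at 22.5 and 67.3 FPKM (1.58). JDP2, which pairs with JUN proteins and represses AP-1 sites, was at 5.26 and 12.7 FPKM (1.27), and BATF, an inhibitor of FOS in immune cells, at 4.14 and 8.38 FPKM (1.02). MAF, another bZIP factor of the list, had a log2 ratio of 1.16. With a pseudocount of 1 BATF (0.87) and MAF (0.97) fell under 2-fold, which left 6 higher.

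Of the other ATF genes, ATF6 and ATF5 were at least 2-fold lower. ATF6, a sensor of stress in the endoplasmic reticulum, was at 8.30 FPKM in No-SCI and 3.05 FPKM in SCI (−1.44), and ATF5 at 118 and 58.7 FPKM (−1.01, which becomes −0.90 and loses the 2-fold call after median centring). ATF1 had a log2 ratio of 0.78, ATF2 of −0.59, ATF7 of −0.28 and ATF6B of −0.05, all under 2-fold. CREB5 (−1.28) and NFE2L1 (−1.29) were lower by a similar amount. ATF4, which drives ATF3 in the integrated stress response, was at 461 FPKM in No-SCI and 470 FPKM in SCI. DDIT3, another ATF4 target, was at 306 and 301 FPKM. CREM, which encodes activators and the inducible repressor ICER, was the most abundant of the list, with 1993 FPKM in No-SCI and 1803 FPKM in SCI. The 3 most abundant genes of the list, CREM, ATF4 and DDIT3, stayed far under 2-fold. Whether ATF4 had a part in the lower ATF3 value was not tested.

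Signals reach immediate early promoters through MAP kinases, SRF with its cofactors, and CREB. Of 33 genes of the MAP kinase cascade 32 had an entry, with a median log2 ratio of −0.20. None was at least 2-fold higher, beside 7.96% of all entries, and 4 were at least 2-fold lower. The lower genes are 12.5% of those with an entry, near the 12.1% of all entries, so their number does not set the list apart. They were MAPK10, the neuronal Jun kinase JNK3 (44.0 FPKM in No-SCI and 16.3 FPKM in SCI, −1.43), MAP2K7, which activates Jun kinases (42.5 and 20.5 FPKM, −1.05), and the kinases MSK1 (RPS6KA5, 23.6 and 7.35 FPKM, −1.68) and MSK2 (RPS6KA4, 21.3 and 10.4 FPKM, −1.04, or −0.98 with a pseudocount of 1), which phosphorylate CREB and histone H3 at immediate early genes. After median centring 2 of these genes stayed lower and 2 other genes of the list reached 2-fold higher. Of 16 genes for SRF, its cofactors and related coregulators, 14 had an entry, with a median of 0.24. Among them 2 were higher (14.3%, beside 7.96% of all entries) and 0 were lower (beside 12.1%). One of the higher genes is TCF3, an E-protein of the basic helix-loop-helix family and not an SRF cofactor. The count is therefore not read as one of SRF and its cofactors. TCF3 was at 7.63 and 16.6 FPKM (1.118), and the CREB coactivator CRTC3 at 1.85 and 6.37 FPKM (1.79). When genes with a mean under 5 FPKM were left out, CRTC3 dropped out and 1 gene of the list stayed higher. ELK4, a factor that binds DNA together with SRF, was at 26.4 and 52.1 FPKM (0.98) and passed 2-fold after median centring, which brought the list to 3 higher. SRF itself was at 3.76 FPKM in No-SCI and 5.43 FPKM in SCI, a log2 ratio of 0.53.

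MAP kinase phosphatases, which end the signal and are themselves induced early, had 8 of 10 genes with an entry, 2 higher (25%, beside 7.96% of all entries) and 1 lower (12.5%, beside 12.1%). Their median log2 ratio was 0.58, but it turned to −0.036, with 1 gene higher, when genes with a mean under 5 FPKM were left out. DUSP1, the best known of them, was at 6.96 FPKM in No-SCI and 40.4 FPKM in SCI, 5.81-fold higher (2.54), a larger ratio than that of any of the 9 genes. DUSP2 was at 1.02 and 2.36 FPKM (1.21), with its No-SCI value close to the lowest in the table. DUSP6, the most abundant, was at 28.6 and 50.2 FPKM (0.81), and DUSP16, which acts on Jun kinases, at 11.7 and 5.08 FPKM (−1.21).

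**Figure D3:**
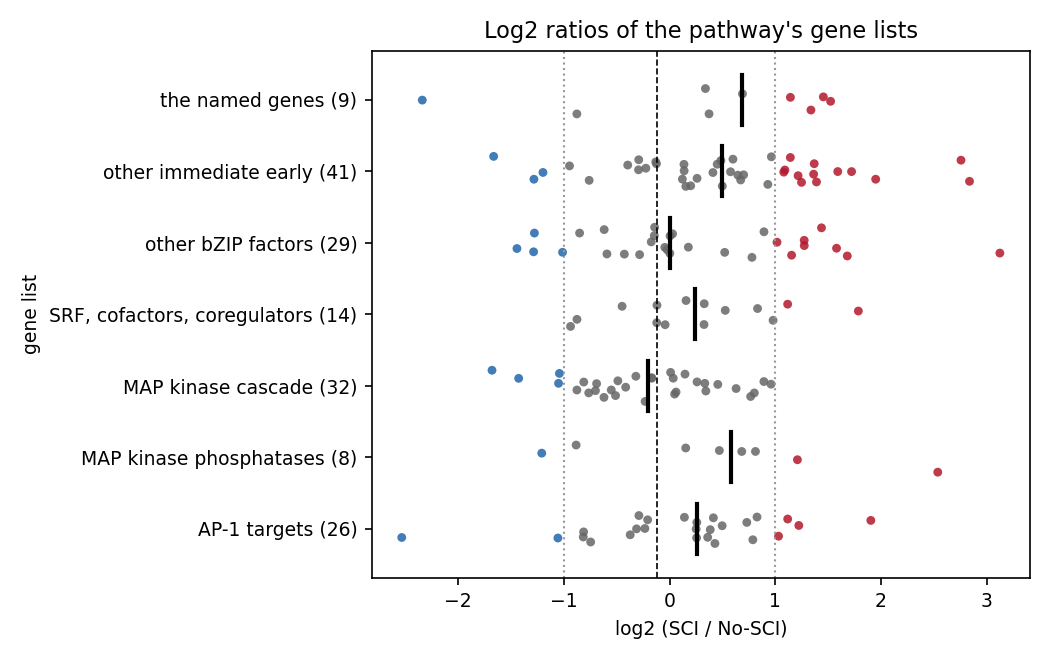
Each point is 1 gene with an entry, placed by its log2 ratio, with red for at least 2-fold higher, blue for at least 2-fold lower and grey between; vertical scatter only separates points, and the number of genes stands beside each list. Black bars are list medians, from −0.20 for the MAP kinase cascade to 0.69 for the 9 genes named at the start, and the dashed line is the median of all entries (−0.12).

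The last list holds 31 genes that are targets of AP-1 or have been linked to its factors. Of these, 26 had an entry, 4 were at least 2-fold higher (15.4%, beside 7.96% of all entries) and 2 at least 2-fold lower (7.69%, beside 12.1%). The median log2 ratio was 0.26. TIMP1, an inhibitor of metalloproteinases, was at 208 FPKM in No-SCI and 780 FPKM in SCI (1.91), the urokinase receptor PLAUR at 4.70 and 11.0 FPKM (1.22), and the intermediate filament gene VIM at 819 and 1674 FPKM (1.03). MMP3, a metalloproteinase that TIMP1 inhibits, was at 38.5 FPKM in No-SCI and 6.65 FPKM in SCI (−2.53), a ratio below that of ATF3, and VEGFA at 27.4 and 13.2 FPKM (−1.06, or −0.94 after median centring). The most abundant genes of this list, LGALS3, HSPB1 and MT2A, had log2 ratios of −0.21, 0.79 and 0.36. Genes that ATF3 and JUN are linked to in regenerating peripheral axons were among those under 2-fold, with GAP43 at 1275 and 1406 FPKM (0.14), SOX11 at 1.46 and 1.91 FPKM (0.39) and SPRR1A at 2.18 and 1.69 FPKM (−0.37).

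Markers of several cell types also differed between the groups, set here beside 7.96% of all entries higher and 12.1% lower. These markers were named after their values were seen. Their shares and sums are therefore a description, and no shift in cell types was tested. Of 12 meningeal fibroblast markers 11 had an entry, 10 were at least 2-fold higher (90.9%) and 0 lower, and their summed level was 105 FPKM in No-SCI and 1021 FPKM in SCI. Of 10 skeletal muscle markers 9 had an entry, 7 were lower (77.8%) and 0 higher, and the sum was 435 FPKM in No-SCI and 55.5 FPKM in SCI. Oligodendrocyte markers (9 of 10 with an entry) summed to 52341 and 29979 FPKM with 7 lower (77.8%). Most of both sums was MOBP, at 44200 FPKM in No-SCI and 27648 FPKM in SCI (−0.68, under 2-fold), while the list's median log2 ratio was −1.62. Astrocyte markers (6 of 10) summed to 351 and 168 FPKM with 5 lower (83.3%), and neuronal markers (8 of 10) to 316 and 194 FPKM with 3 lower (37.5%). Microglia and macrophage markers (12 of 12) summed to 957 FPKM in No-SCI and 1009 FPKM in SCI, with 1 higher (8.33%, near the share of all entries) and 3 lower (25%), and endothelial and mural markers (8 of 10) to 61.1 and 57.2 FPKM, with 1 higher, the endothelial cadherin CDH5 (3.85 and 11.7 FPKM), which is 12.5% of them, and 0 lower. Among blood and neutrophil markers (6 of 10) the neutrophil genes S100A8 and S100A9 were higher (33.3% of the list), with log2 ratios of 1.54 and 1.70, while the neutrophil gene CSF3R was at 17.1 FPKM in No-SCI and 8.97 FPKM in SCI (−0.93) and the hemoglobin genes HBA-A1 and HBB also stayed under 2-fold. None of the 12 ubiquitous genes reached 2-fold as deposited, although HPRT1, at 76.7 and 153 FPKM (0.9988), did after median centring (1.116). GFAP, AQP4 and SLC1A3 of the astrocyte list, MBP of the oligodendrocyte list, SNAP25 and NEFM of the neuronal list and PECAM1 of the endothelial list have no entry. With 1 value per group the part of these shifts in the ratios of ATF3, FOS, JUNB, JUND and EGR1 was not tested.

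**Figure D4:**
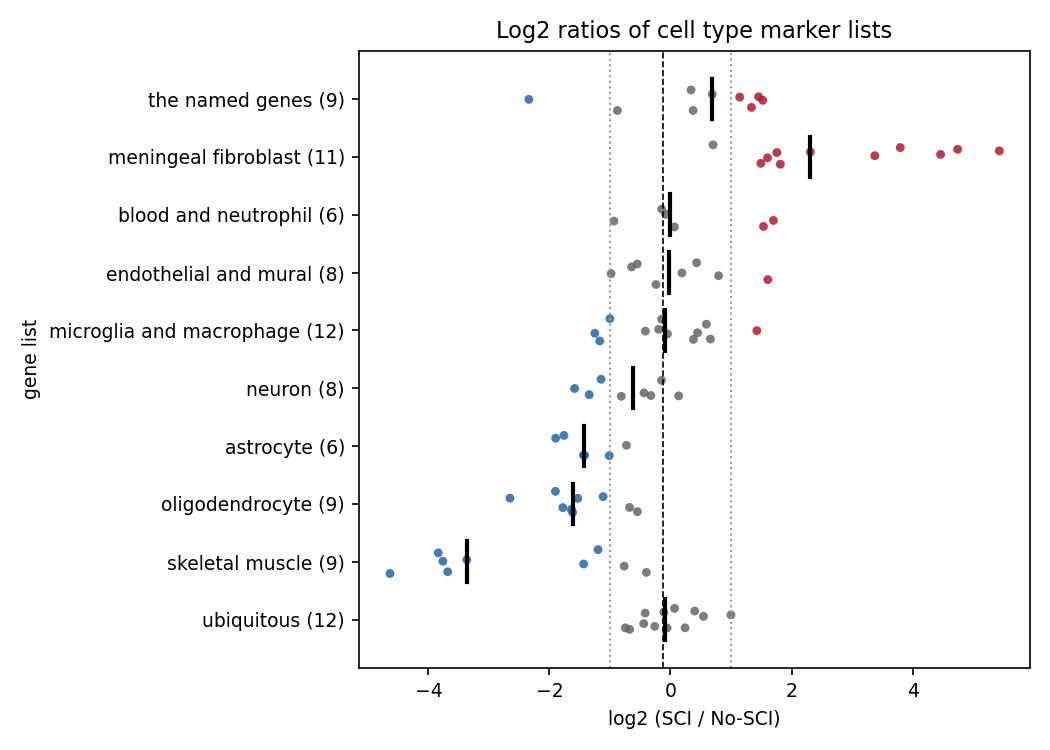
Each point is 1 gene with an entry, placed by its log2 ratio and coloured as in the plot of the pathway's lists, with the number of genes beside each list and black bars at the medians. Meningeal fibroblast markers lie to the right (median 2.31) and skeletal muscle (−3.37), oligodendrocyte (−1.62) and astrocyte (−1.43) markers to the left, and the median of the 9 named genes (0.69) lies between, with ATF3 alone (−2.34) left of the oligodendrocyte and astrocyte medians.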

How the data were processed

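RNA of the acellular fraction was measured in 2 No-SCI libraries and 1 SCI library. Per the labels and the methods, the authors depleted ribosomal RNA, made strand-specific total RNA libraries, reduced every library to the read number of the smallest, aligned reads to rn6 with STAR 2.5.4b and estimated FPKM with Cuffdiff 1.3.0 under upper quartile normalization. The authors' deposited FPKM are 1 estimate per group, so the reads behind a value and the replicate spread are unknown. The table also holds the authors' p-values, q-values and fold changes, which were not used. 0 measurement columns were left without a group.

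Log2 ratios of SCI to No-SCI were computed without a pseudocount. Of 13 symbols with a second entry, none of them in a list here, the more abundant entry was kept. The genes and lists were chosen with earlier results of these data known. Named were all 10 genes and, per list, genes at least 2-fold different with a mean of at least 5 FPKM and the 3 most abundant, of which some are not reported here. ARC, NR4A2, ATF1, ATF2, ATF7, ATF6B, SRF, ELK4, ERRFI1, BATF3, HPRT1, CRTC3, DUSP2, the regeneration genes GAP43, SOX11 and SPRR1A, and the markers were named after their values were seen. The counting and scaling steps were tested on simulated data. Promoter windows and symbols came from RefSeq (GRCr8), which is another assembly than that of the values. Python 3.11.15, numpy 2.4.6, pandas 2.3.3 and matplotlib 3.10.9 were used. Alternatives were a pseudocount of 1, subtraction of 1, median, upper quartile and total scaling, fold minimums of 1.5 and 3, a mean of at least 5 FPKM for the lists, and the smaller entry of repeated symbols, which could change no value here.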

Additional observations from a re-analysis of the deposited data

How the results depend on the processing

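Adding or subtracting 1 cannot reverse the direction of a ratio. The scalings raise every log2 ratio by 0.12 or less, under the smallest of the 9 genes in size (JUN, 0.34). That all 9 kept their direction under the 5 alternative scalings and constants was therefore fixed in advance, and only the sizes could move. ATF3 lay between −2.36 and −2.22, FOS between 1.13 and 1.26 and JUNB between 1.31 and 1.46 on the log2 scale. JUND lay between 1.496 and 1.64 and EGR1 between 1.37 and 1.57. The count of genes at least 2-fold lower became 2, with NR4A1 (−1.02), when 1 was subtracted from every value, which also put FOSB at 1.499, and 2 under a 1.5-fold minimum. A 3-fold minimum left 0 of the 9 genes higher. For the lists, a mean of at least 5 FPKM left 1 higher gene, TCF3, in the list of SRF and coregulators and 1 higher phosphatase, and moved the median of the phosphatases to −0.036 and that of the other bZIP factors to −0.034, since genes at low levels were then left out. Median centring, which raises every log2 ratio by 0.12, changed the MAP kinase counts to 2 higher and 2 lower, brought ELK4, NR4A2, ERRFI1, BATF3 and HPRT1 past 2-fold and left 1 AP-1 target lower. A pseudocount of 1 left 1 phosphatase higher and took KLF10, SIK1, ARC, BATF, MAF and RPS6KA4 under 2-fold. Among the markers SLC1A2 and P2RY12 lost their calls under both of these settings, MOG under centring and MYH2 under the pseudocount. Of the 118 values recomputed, leaving out the choice of entry for repeated symbols, which none of the lists holds, 106 kept within 1.5 times the reported count or, for a log2 ratio or median, within 1.5-fold of the reported fold on the same side of 0. Even so the median of the 9 genes was 1.16 with 1 subtracted, and median centring took that of the MAP kinase cascade to −0.083 and cost ATF5 its call. No paired analysis was possible because libraries have no values of their own in the table, and leaving out each library in turn was not run for the same reason. Upper quartile scaling raises every log2 ratio by 0.10. The table holds no read counts per gene, so how far the values near the lowest one in the table, such as those of FOSB and DUSP2, are limited by read number cannot be stated.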
